A study of Phaseolus coccineus with 4 samples.

Results

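Chromosome 8 was examined for the places where chromatin of young scarlet runner bean seeds was enriched by an antibody to the WOX9-like protein. All peaks that the deposited lists place on chromosome 8 were taken, 3535 of the 34876 peaks of ChIP replicate 1 and 2303 of the 23218 peaks of ChIP replicate 2. Peaks overlapping by 1 bp or more were merged into 3588 regions, out of 35556 in the whole series. Of these, 2069 held a peak of each list and are called shared regions, 1447 held replicate 1 peaks alone and 72 held replicate 2 peaks alone. Shared regions made up 57.7% of the merged regions on chromosome 8, against 58.3% in the whole series. The chromosome was proposed as one whose regions are confined to its ends. The counts go only part of the way with that name, because 278 shared regions (13.4%) lay in the interior, the 50% of the span between the outer 25% at each end.

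WOX proteins are plant homeodomain transcription factors that bind DNA and set cell identity in embryos and meristems. In Arabidopsis, WOX9 and its close relative WOX8 act in the basal daughter cell of the zygote and its descendants, which form the suspensor. The scarlet runner bean has long been used to study the suspensor because that organ is large in this species. In ChIP-seq, DNA bound to the protein is pulled down and sequenced, and a peak is a stretch with more fragments than a control library gives. In beans, as in many plants, genes lie mostly toward the chromosome ends, and repeats fill much of the stretch around the centromere. A peak does not by itself show binding by the protein, and no gene was assigned to any position here.

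The series holds 2 WOX9-like ChIP samples and 2 input samples of the cultivar Hammond's Dwarf Red Flower. All were taken from the embryo-bearing micropylar part of seeds of 1.6 to 2.5 mm, 6 days after hand pollination, at the globular stage, and were fixed with 1% formaldehyde for 10 min. The ChIP samples were incubated with 10 ug of an antibody to a peptide of the WOX9-like protein, and the inputs are chromatin set aside without it, with no values of their own here. The labels name no test of the antibody, and whatever else that antibody binds is enriched with it. The labels number the replicates without saying that they came from separate plants or harvests, and the spread between them may therefore be technical. Seeds of this stage hold maternal seed coat and endosperm as well as the embryo, and the cell type behind a peak is unknown. The deposited peak names give the control of replicate 1 as noAb and that of replicate 2 as input. The kind of control may therefore differ between the replicates, and with it the level of the folds.

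Total sequencing depth is unknown, but the number of ChIP fragments at each summit could be recovered from the deposited fold and p-value. The median peak of chromosome 8 had 76 fragments at its summit in replicate 1 and 46 in replicate 2, against 76 and 44 over the whole lists. Replicate 1 thus had more fragments per summit than replicate 2. On chromosome 8, 59.1% of replicate 1 peaks overlapped a replicate 2 peak (95% Wilson interval 57.4 to 60.7), against 60.0% over the series. Of the replicate 2 peaks 96.9% overlapped a replicate 1 peak (interval 96.1 to 97.5), against 96.2% over the series. Both shares are near those of the series.

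Shared regions were piled up at both ends of chromosome 8 and thin across its interior. The span to the last peak was 63.03 Mb, the longest of the 11 chromosomes, in positions that may be those of another Phaseolus species. The outer 25% at each end (together 31.5 Mb) held 1791 of the 2069 shared regions, or 86.6% (interval 85.0 to 88.0). The same outer parts held 69.1% of the shared regions over all 11 chromosomes. The share was 84.6% for all replicate 1 peaks and 86.9% for all replicate 2 peaks (mean 85.8% ± 1.64, SD, n = 2). In each list and in the shared set, chromosome 8 had the highest share of the 11. For shared regions the other 10 ranged from 40.5% on chromosome 9 to 82.8% on chromosome 10 (interval 80.5 to 84.9), just under the interval of chromosome 8. For replicate 1 peaks the interval of chromosome 8, 83.4 to 85.8, overlaps that of chromosome 10, 81.6 to 85.0. One chromosome against 10 gives no replicated comparison, so the rank is a description with no test.

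**Figure D1:**
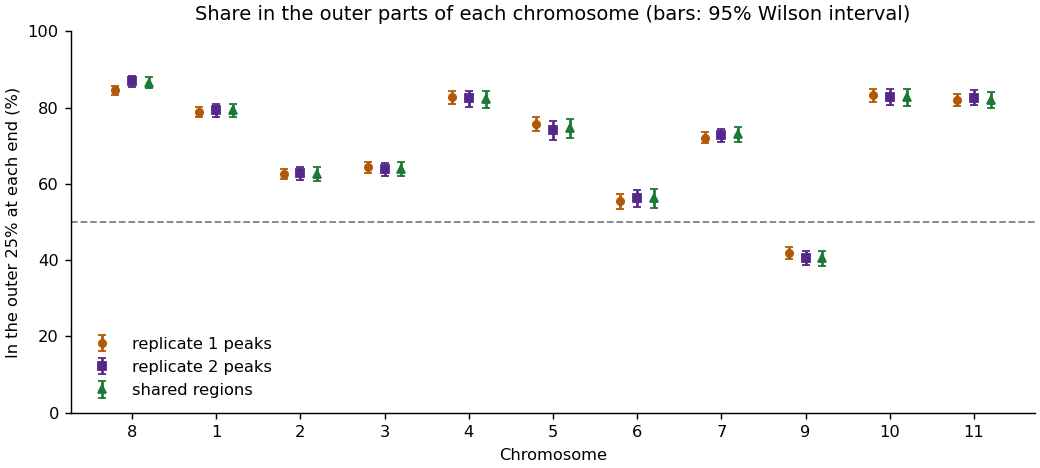
Share of peaks and shared regions in the outer 25% of the span at each end (%, y axis) for chromosome 8 at the left and the other 10 chromosomes (x axis). Points are replicate 1 peaks, replicate 2 peaks and shared regions, bars are 95% Wilson intervals, and the dashed line is the 50% of evenly spread positions. Chromosome 8 stands at 84.6%, 86.9% and 86.6%, and only chromosome 9 lies below the line.

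The high share came from ends of ordinary density beside an interior among the emptiest. Chromosome 8 had 56.8 shared regions per Mb in its outer parts, which ranked 5 of 11, where the other 10 ranged from 38.8 on chromosome 4 to 79.7 on chromosome 7. In its interior it had 8.82 per Mb, close to the 8.37 of chromosome 4, the 8.58 of chromosome 10 and the 8.78 of chromosome 11. These 3 chromosomes have interiors as thin as that of chromosome 8 but thinner outer parts, with 38.8, 41.3 and 39.9 shared regions per Mb. The density of the ends was 5.50 times that of the interior in replicate 1 and 6.65 times in replicate 2 (mean 6.07 ± 0.815, SD, n = 2). For shared regions the ratio was 6.44 on chromosome 8, against at most 4.81, on chromosome 10.

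In 1 Mb bins, density fell in steps rather than at one place. From the first end, which is the end where positions start, the bin from 0 to 1 Mb held 54 shared regions. The next 3 bins held 115, 101 and 89, the highest of that end. The bins from 5 to 9 Mb held 47 to 59 each, and the bin from 9 to 10 Mb held 39. A first drop came at 10 Mb, where the next bin held 21. Counts then stood at 24 to 40 as far as 15 Mb.

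The second drop was abrupt, though the count rose again in the bin after it. The bin from 14 to 15 Mb held 38 shared regions and the one from 15 to 16 Mb held 5. In that pair of bins replicate 1 listed 56 and 21 peaks and replicate 2 listed 39 and 5. In proportion to the bin before it the drop was larger in replicate 2, while in number of peaks it was about the same. From 15 to 47 Mb, 32 bins in a row held 22 or fewer shared regions each, with a median of 6 and 276 in all. From 47 to 63 Mb every bin held at least 28, with a median of 57.5.

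On the far side the change was less steep. The bin from 46 to 47 Mb held 12 shared regions and the one from 47 to 48 Mb held 31. Replicate 1 listed 20 and 49 peaks in this pair and replicate 2 listed 13 and 33. Counts reached 64 in the bin from 53 to 54 Mb. The densest bins of the second end ran from 56 to 59 Mb with 83, 118 and 87 shared regions. The last whole bin, from 62 to 63 Mb, held 67, close to the 71 of the bin before it. At the first end the outermost bin held 54 beside a bin of 115. Both outermost bins thus held fewer than the densest bin of their end. Peaks per bin of both lists went together closely (Spearman rho 0.99, Pearson r 0.99, across 63 bins of 1 chromosome that share a genome and its mappable stretches, given without a p).

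**Figure D2:**
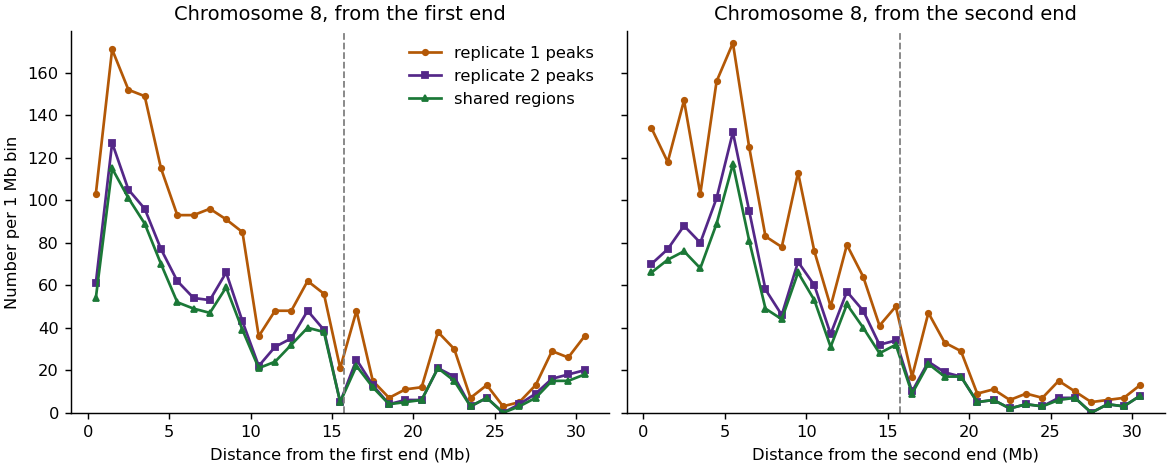
Numbers of replicate 1 peaks, replicate 2 peaks and shared regions per 1 Mb bin (y axis) against the distance from the first end (left) and from the second end (right) of chromosome 8 in Mb (x axis). Bins on the right are counted back from the last peak, and the dashed line marks the outer 25% of the span. The highest bins of shared regions hold 115 near the first end and 117 near the second. Beyond the line every bin holds 23 or fewer, apart from the second-end bin that the line crosses, with 32.

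In the outer 25% of the span the first end held somewhat fewer regions than the second. The first end held 835 shared regions (53.0 per Mb) and the second end 956 (60.7 per Mb). In replicate 1 there were 1415 peaks in the first end and 1576 in the second. In replicate 2 there were 924 in the first end and 1078 in the second. The ratio of first to second end was 0.898 in replicate 1 and 0.857 in replicate 2 (mean 0.877 ± 0.0288, SD, n = 2), below 1 in both. With wider sides of unequal length the numbers were nearly equal, but the densities were not. With all bins before 31 Mb set against all bins after 43 Mb, the first side held 48.96% of the shared regions of both sides (interval 46.8 to 51.1). The first side is the longer, and it held 31.9 shared regions per Mb against 51.4 on the second side. By number the first side held 50.4% when a required overlap of 50% of each peak defined the shared regions. The thin stretch between the sides was then found anew and was 13 Mb long, so the sides were not quite the same.

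Within the outermost 5 Mb the order was the other way round. In the outermost 5 Mb the first end held 85.8 shared regions per Mb and the second end 74.2. From 5 to 10 Mb inward the first end held 49.2 per Mb and the second end 71.4, and from 10 to 15 Mb they held 31 and 40.6. From 15 to 20 Mb inward the first end held 9.6 per Mb and the second end 19.6. Deeper in, the first side held more again, with 10.4 per Mb against 4.0 from 20 to 25 Mb and 8.0 against 4.0 from 25 to 30 Mb. Of the shared regions in the first 50% of the span, 90% lay within 21.5 Mb of the tip, and of those in the other 50% of the span, 90% lay within 16.9 Mb. The peaks of each list gave similar distances, 22.0 Mb and 17.6 Mb in replicate 1 and 21.5 Mb and 16.0 Mb in replicate 2.

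The longest thin stretch lay off centre, toward the second end. The longest run of 1 Mb bins with 10 or fewer shared regions each, called the core here, went from 31 to 43 Mb and held 51 shared regions in 12 bins (4.25 per Mb). Its length rests on replicate 2: the longest such run was 12 Mb for replicate 2 peaks alone and 4 Mb for replicate 1 peaks alone, which are more numerous. The rest of the interior, 19.5 Mb long, held 227 (11.6 per Mb). Replicate 1 listed 105 peaks in the core and replicate 2 listed 53. Density in the rest of the interior was 2.57 times that of the core in replicate 1 and 2.88 times in replicate 2 (mean 2.72 ± 0.217, SD, n = 2). Since low density defined the core, these ratios describe it and test nothing.

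Counts stepped at both borders of the core, in part by the rule that set it, since the bins beside it must hold more than 10. The bin before it, from 30 to 31 Mb, held 18 shared regions and its first bin held 4. Its last bin held 4 and the bin after it, from 43 to 44 Mb, held 18. Within the core no bin held more than 8, where the rule allows up to 10. A second run of 12 such bins occurred in the series, on chromosome 4, and the other 9 chromosomes had runs of at most 7. By the count of all bins with 10 or fewer shared regions, chromosomes 8 and 4 had 21 each, of 63 and 48 whole bins. As a share of whole bins, chromosome 8 ranked 4 of 11 with 33.3%. Chromosome 4 had 43.8%, chromosome 11 had 35.8% and chromosome 10 had 34.1%.

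Small islands broke up the rest of the interior. The bin from 16 to 17 Mb held 22 shared regions, that from 21 to 22 Mb held 21, and the 3 bins from 28 to 31 Mb held 15, 15 and 18. Between the core and the second end the 4 bins from 43 to 47 Mb held 18, 17, 20 and 12. In the bin from 16 to 17 Mb replicate 1 listed 48 peaks and replicate 2 listed 25. In the bin from 21 to 22 Mb the counts were 38 and 21. Elsewhere the bins from 25 to 26 Mb and, in the core, from 35 to 36 Mb held no shared region. Replicate 1 listed 3 and 5 peaks in those bins and replicate 2 listed none.

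Gaps between neighbouring shared regions were short in the ends and long in the interior. The median gap was 5.68 kb in the first end, 5.94 kb in the second end, 26.8 kb in the interior outside the core and 124 kb in the core. The first end had 396 gaps under 5 kb (47.4%) and the second end 451 (47.2%), against 7 (13.5%) in the core. A shared region with no other within 5 kb on either side was the case for 29.5% of those in the ends, 46.7% of those in the interior outside the core and 74.5% of those in the core. In the core 38 of the 51 stood alone in this sense.

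**Figure D3:**
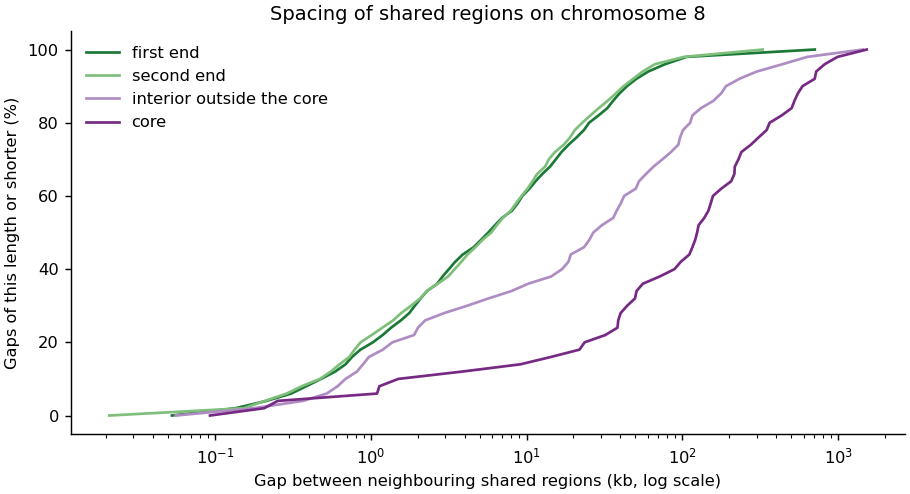
Cumulative share of gaps (%, y axis) by gap length (kb, log scale, x axis) between neighbouring shared regions of chromosome 8, by zone. The curves of both ends lie on each other with medians of 5.68 and 5.94 kb, and those of the interior outside the core and of the core are shifted to 26.8 and 124 kb.

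The longest gap on chromosome 8 ran for 1.52 Mb from 34596368 to 36120431, in the core. It held 5 replicate 1 peaks and no replicate 2 peak. The second ran for 1.44 Mb from 24597953 to 26035715, with 3 replicate 1 peaks inside. The next ran for 994206 bp from 40779952 to 41774157, for 985329 bp from 26493893 to 27479221 and for 949022 bp from 17418425 to 18367446. The last of these held no peak of either list and was the longest stretch of the chromosome free of any listed peak. In the ends the longest gap was 708 kb, from 10745810 to 11453542 in the first end, and 328 kb in the second end.

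Chromosome 8 had many long gaps, as did the other chromosomes with thin interiors. It had 19 gaps of 500 kb or more, or 0.301 per Mb, against 0.384 on chromosome 10, 0.333 on chromosome 4 and 0.261 on chromosome 11. Together they made up 23.5% of its span, against 31.4% on chromosome 4, 30.7% on chromosome 11 and 27.0% on chromosome 10, and at most 16.3% on the other 7. Gaps of 1 Mb or more numbered only 2 and made up 4.70% of its span, against 7.78% on the other 10. The longest gap elsewhere was 3.13 Mb, on chromosome 11.

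Peaks were about equally strong in the ends and in the interior. Fold enrichment is the height of the summit over the control, as the authors' peak caller gave it. In replicate 1 the median fold was 4.36 in the ends (quartiles 3.11 and 6.88) and 4.28 in the interior (3.05 and 6.36). In replicate 2 it was 5.20 in the ends (3.70 and 7.98) and 4.88 in the interior (3.61 and 7.52). The ratio of ends to interior was 1.02 in replicate 1 and 1.07 in replicate 2 (mean 1.04 ± 0.0326, SD, n = 2). On the other 10 chromosomes this ratio ranged from 0.887 to 1.07 in replicate 1 and from 0.919 to 1.05 in replicate 2, so that chromosome 8 ranked 3 of 11 in replicate 1 and 1 of 11 in replicate 2. The first end stood at 0.972 times the median fold of the second end in replicate 1 and at 1.02 times in replicate 2, on either side of 1.

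Shared regions showed the same small step. The median of the lower of the 2 folds was 4.86 in the ends and 4.53 in the interior of chromosome 8, whereas it was 4.71 in the ends and 4.80 in the interior of the other 10 chromosomes. It was lowest in the core, at 4.11, over 51 regions. Strong regions are those where each replicate reached a fold of 10 or more. They made up 206 of the 2069 shared regions of chromosome 8 (9.96%, interval 8.74 to 11.3), against 8.78% over the series. In the ends they made up 175 of 1791 (9.77%, interval 8.48 to 11.2), and in the interior 31 of 278 (11.2%, interval 7.97 to 15.4), with intervals that overlap widely. In numbers per Mb they followed the density of all regions, with 5.55 in the ends and 0.984 in the interior.

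Core peaks had the lowest median width and the fewest summit fragments of the zones. In replicate 1 the median peak of the rest of the interior was 389 bp wide with 69 fragments at the summit, against 367 bp and 66 fragments in the core. In replicate 2 it was 381 bp wide with 46 fragments in the rest of the interior, against 279 bp and 35 fragments in the core. The rest of the interior was 1.21 ± 0.216 times as wide as the core (SD, n = 2), so the spread between replicates is as large as the difference. The median local control background in replicate 1 was 17.0 scaled fragments in the ends, 15.6 in the rest of the interior and 14.5 in the core. In replicate 2 it was 8.60 in the ends, 8.60 in the rest of the interior and 6.88 in the core. The part of the background in the fold and width of these peaks was not tested.

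**Figure D4:**
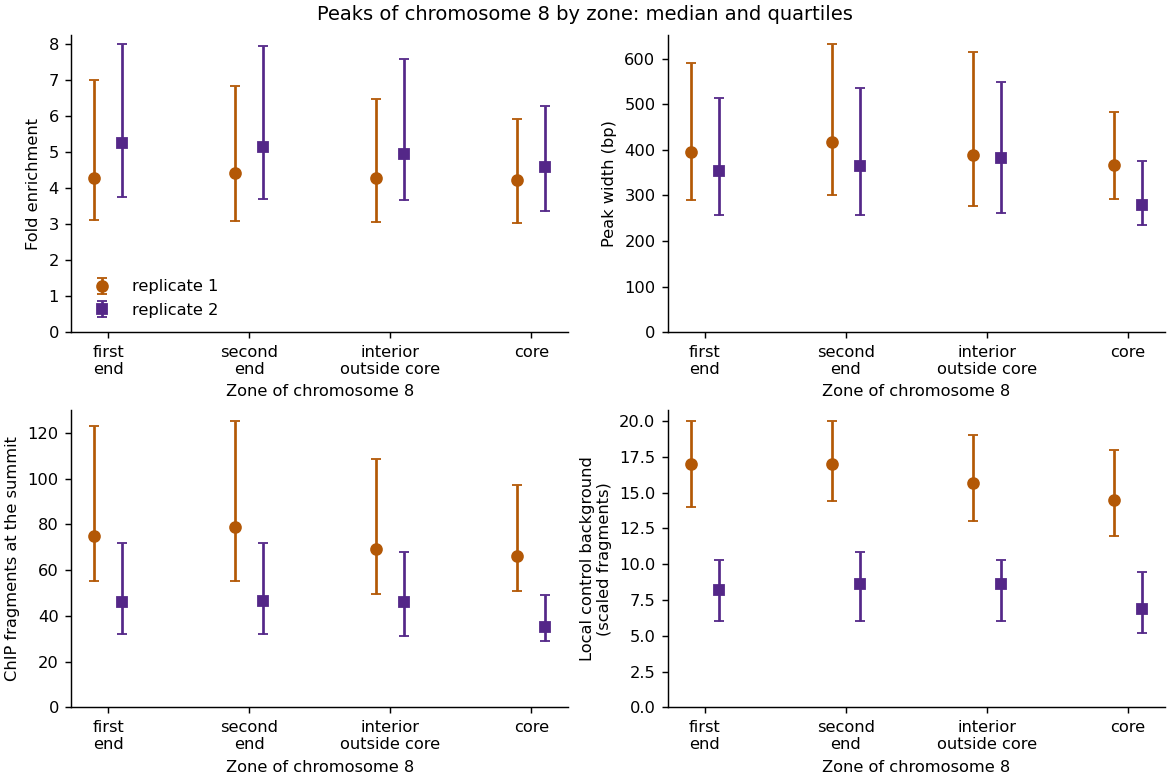
Fold enrichment, peak width in bp, ChIP fragments at the summit and local control background in scaled fragments (y axes) of all peaks in the zones of chromosome 8 (x axes). Points are medians and bars run between the quartiles, for each replicate. Medians of fold lie between 4.24 and 4.41 in replicate 1 and between 4.58 and 5.25 in replicate 2, and the core has the lowest median in each panel for both replicates.

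Broad regions made up a smaller share of the first end than of the second, with intervals that just overlap. Of the shared regions of chromosome 8, 279 (13.5%) were 1000 bp or wider, against 13.6% over the series. They made up 93 of 835 in the first end (11.1%, interval 9.18 to 13.5) and 149 of 956 in the second end (15.6%, interval 13.4 to 18.02). On the other 10 chromosomes 13.2% of the shared regions in first ends and 13.5% of those in second ends were that broad. The median peak of the first end was 396 bp wide in replicate 1, against 418 bp in the second end, and 354.5 bp in replicate 2, against 365 bp. The ratio was 0.947 in replicate 1 and 0.971 in replicate 2 (mean 0.959 ± 0.0169, SD, n = 2). One replicate 1 peak covered several replicate 2 peaks in 48 of the 835 shared regions of the first end and 73 of the 956 of the second. On the other 10 chromosomes this was so in 1171 of 18364, a share that lies between those of the 2 ends. In the core 2 of 51 shared regions were 1000 bp or wider (3.92%, interval 1.08 to 13.2). That interval overlaps the one of the first end and stops just below the one of the second.

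Of the 5 widest shared regions, 4 lay in the second end. The widest spanned 5846 bp from 57289486 to 57295331, with a fold of 10.2 in replicate 1 and 8.13 in replicate 2. The next spanned 5119 bp from 59779789 to 59784907, with 11.1 and 14.1. One of 4568 bp, from 53179154 to 53183721, was also among the strongest of the chromosome, and a single replicate 1 peak there covered 4 of replicate 2. A region of 4535 bp from 56159956 to 56164490 joined 5 replicate 2 peaks under 1 of replicate 1. The only one of these in the first end spanned 4503 bp from 11682776 to 11687278. Its highest summits in the 2 lists were 2997 bp apart, so they are different maxima within one merged region.

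Fewer replicate 1 peaks of the interior of chromosome 8 than of its ends were found again in replicate 2. In the ends 1807 of 2991 replicate 1 peaks overlapped a replicate 2 peak (60.4%, interval 58.6 to 62.2), and in the interior 281 of 544 did (51.7%, interval 47.5 to 55.8). The difference was 8.76 percentage points (95% normal interval 4.21 to 13.3, counting error only, with peaks taken as independent). On the other 10 chromosomes the same difference ranged from -3.86 on chromosome 9 to 2.43 on chromosome 7. In the other direction no such step was seen, with 96.7% of replicate 2 peaks in the ends and 98.0% in the interior found in replicate 1, a difference of -1.30 points (interval -3.07 to 0.459). With ends of 20% of the span in place of 25% the difference was 3.86 points, which is below the interval above.

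**Figure D5:**
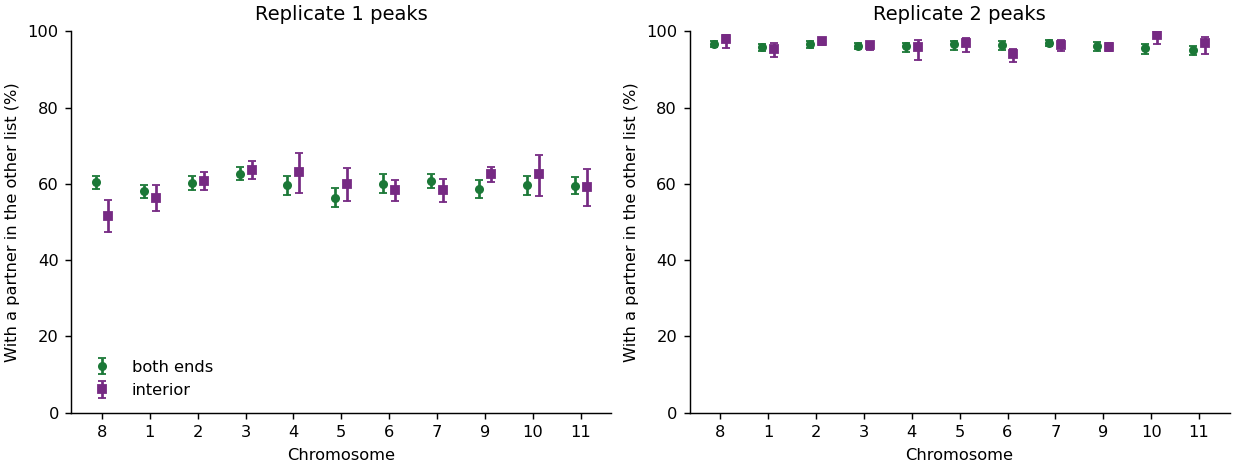
Share of replicate 1 peaks (left) and replicate 2 peaks (right) that overlap a peak of the other list (%, y axis) in both ends and in the interior of each chromosome, with chromosome 8 at the left (x axis). Bars are 95% Wilson intervals. In the left panel the intervals of chromosome 8 are 58.6 to 62.2 in the ends and 47.5 to 55.8 in the interior, and those of the other chromosomes overlap.

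Weak peaks were more frequent in the interior of chromosome 8 than in its ends. Summits with fewer than 50 fragments made up 17.1% of replicate 1 peaks in the ends of chromosome 8 and 24.8% in its interior, against 17.4% and 18.1% on the other 10 chromosomes. Such weak peaks had a partner in 10.98% of cases in the ends and 12.6% in the interior. At 50 to 74 fragments the share was 35.2% in the ends (interval 32.1 to 38.3) and 30.9% in the interior (interval 24.4 to 38.3). At 75 to 119 fragments it was 83.8% (interval 81.0 to 86.2) and 78.8% (interval 71.3 to 84.8). At 120 or more it was 98.6% and 98.1%. Within each class of fragments the intervals of ends and interior overlap. Matched on fold, they did not all overlap. At a fold of 3 to 5 the share with a partner was 49.7% in the ends (interval 46.8 to 52.7) and 37.4% in the interior (interval 31.1 to 44.3). At a fold of 5 to 10 it was 87.8% in the ends (interval 85.6 to 89.8) and 80.7% in the interior (interval 74.0 to 86.1), and under 3 it was 21.3% and 18.9%. Overlapping intervals do not show that a difference is absent, and the fragment classes of the interior hold only 107 to 165 peaks. At matched fragments the share was lower in the interior in each class but the lowest. At matched fold it was lower in each class given, with intervals apart in the class from 3 to 5. No test of these differences was run.

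The share also varied within the ends. By 5 Mb steps from the first end it was 62.5%, 54.4% and 62.8%, and from the second end 56.7%, 63% and 66.5%. Further in it was 47.1%, 55.0% and 52.6% on the first side and 55.7%, 47.6% and 46.5% on the second. The step from 15 to 20 Mb crosses the border of the end zone on either side.

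The longest run of replicate 1 peaks without a partner lay across the border of the first end. From 15383683 to 16016135, just at the steep drop from the first end, 13 replicate 1 peaks in a row had no partner. Their folds ran from 2.51 to 8.14 with a median of 3.85, and their summits held 40 to 103 fragments. Of the 13, 8 lay in the first end and 5 in the interior. Runs of this kind were also found elsewhere, with 15 peaks in a row on chromosome 1 and 13 on chromosome 2, and runs of 8 to 11 on the other 8. Without the 13 peaks the difference between ends and interior of chromosome 8 was 8.44 points.

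Where both replicates had a peak, they placed it alike in all zones. The median distance between the 2 summits was 37 bp in the ends, 37 bp in the interior and 37 bp in the core. Summits lay within 100 bp of each other in 84.5% of the shared regions of chromosome 8, against 85.0% over the series. Fold of the shared regions was correlated between replicates in the ends (Spearman rho 0.72 across 1791 regions) and in the interior (rho 0.66 across 278 regions). These are descriptions across regions, which share libraries and controls and are not replicates. On the log2 scale, fold in replicate 2 over fold in replicate 1 had a median of -0.05 in the ends and -0.16 in the interior, with an SD of 0.54 and 0.60 across regions.

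The strongest shared regions were spread over both ends and reached into the interior. Of the 10 with the highest lower-of-2 fold, 5 lay in the first end, 3 in the second end and 2 in the interior. Chromosome 8 held 9.98% of all shared regions of the series. Its share was 8% of the 50 strongest, 9% of the 100 strongest, 12.5% of the 200 strongest, 10.2% of the 500 strongest and 10.7% of the 1000 strongest, on either side of that value. Among its 25 of the 200 strongest, 9 lay in the first end, 11 in the second end and 5 in the interior. Genes beside them were not analysed here.

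The highest, from 14775577 to 14776303, had 282 ChIP fragments at its summit over a background of 11.5 in replicate 1 and 174 over 5.25 in replicate 2. It stood in the last dense bin before the drop at 15 Mb. The second, from 1614276 to 1616593, had 346 fragments over 15.0 in replicate 1 and 243 over 6.54 in replicate 2. Its folds were 21.5 (exact Poisson interval 19.3 to 23.9) and 32.4 (interval 28.4 to 36.7), higher in replicate 2 by more than ChIP counting error. That interval leaves out the error of the control.

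In the second end the strongest was the broad region from 53179154 to 53183721. Its fold was 18.4 in replicate 1 (interval 16.5 to 20.5) and 19.1 in replicate 2 (interval 16.7 to 21.9), with summits 3 bp apart. A narrow one of 472 bp from 61304994 to 61305465, 1.73 Mb from the tip, had 21.6 in replicate 1 and 17.7 in replicate 2. The region from 60051838 to 60052605 had 20.04 and 16.3. The intervals of the replicates overlap at all 3, which does not by itself show that the folds are equal.

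The region of the 10 with the largest gap between replicates lay at the inner border of the second end. From 47224593 to 47225271, 15.8 Mb from the tip, the fold was 17.3 in replicate 1 (interval 15.4 to 19.5) and 34.2 in replicate 2 (interval 29.4 to 39.5), or 25.7 ± 11.9 (SD, n = 2). The summits held 278 and 180 fragments. The control backgrounds were 15.0 and 4.30, against chromosome medians of 17.0 and 8.60, so that the low background of replicate 2 goes with its high fold. The other interior region of the 10 lay from 22247805 to 22249752, with 16.3 in replicate 1 and 20.3 in replicate 2. It stood in the bin from 22 to 23 Mb, which held 15 shared regions, 22.2 Mb from the nearer end.

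The remaining 3 of the 10 lay within 2.25 Mb of the first tip. From 510163 to 512691 the fold was 17.8 in replicate 1 and 17.3 in replicate 2, though the highest summits were 468 bp apart within 2529 bp. From 712119 to 713526 it was 16.1 and 17.0. From 2245154 to 2245811 it was 18.2 and 17.3. The spread between replicates at these 3 was small, with SDs of 0.407, 0.638 and 0.646 (n = 2).

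The core held strong regions too. The strongest, from 39348106 to 39348685, had a fold of 18.2 in replicate 1 (interval 16.0 to 20.6) and 14.6 in replicate 2 (interval 12.4 to 17.1), 23.7 Mb from the nearer end. From 37840598 to 37841376 the fold was 12.5 in replicate 1 (interval 10.9 to 14.1) and 17.6 in replicate 2 (interval 15.1 to 20.5). From 36195859 to 36196458 it was 12.1 and 11.3.

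Peaks of replicate 1 without a partner were mostly weak. Over chromosome 8 they had a median fold of 3.20, a median width of 296 bp and 53 fragments at the summit, against 5.89, 530 bp and 109 for those with a partner. A fold of 10 or more was reached by 350 replicate 1 peaks of chromosome 8 (9.90%), against 9.03% over the series, and 6 of the 350 had no partner (1.71%, against 1.65% over the series). As a share of all replicate 1 peaks these were 0.170% on chromosome 8, against 0.149% over the series. The strongest on chromosome 8, from 16772072 to 16772487 in the interior, had 122 fragments over a background of 7.43, with 13554 bp to the closest peak of replicate 2. The next had 12.5 (from 57376368 to 57376716) and 12.4 (from 6755590 to 6756064). All 3 had backgrounds of 7.43 to 7.44, at or near the lowest of the replicate 1 list, 7.43.

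The 72 regions found in replicate 2 alone had a median fold of 3.27 and 25 fragments at the summit. A fold of 10 or more was reached by 341 replicate 2 peaks of chromosome 8 (14.8%), against 13.6% over the series, and each of these had a partner. The highest without one, from 51810774 to 51811024 in the second end, had 7.84 (interval 5.52 to 10.8) with 35 fragments. The next had 6.74 (from 59045580 to 59045778) and 6.08 (from 10323884 to 10324131). Of the 72, 34 lay in the first end, 32 in the second end and 6 in the interior.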

How the data were processed

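Each ChIP sample came with a deposited peak list, and the input samples have no values of their own here. The submitters' processing notes name Bowtie (0.12.7), MACS2 with no version and SAMtools (0.1.18), and no settings are given here. The deposited lists give the fold enrichment of the summit over control (a ratio), p- and q-values as −log10, and a score, which equals 10 times −log10 q without its decimals in 99.97% of the replicate 1 list and throughout the replicate 2 list. Peaks were called per sample, per the file headers (peak names), which also carry the tag Pv442. The build is not stated in words, and the gene table at hand belongs to another assembly, so no genes or sequences are given. Positions count from 1.

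Lists were merged at 1 bp overlap with Python 3.11.15, pandas 2.3.3 and numpy 2.4.6, and intervals came from scipy 1.17.1. Regions were binned by midpoint. The span ran to the last peak. The fold of a shared region is that of its highest-fold peak in each list. Summit fragments were solved from fold and p-value within 0.002 in −log10 p for all peaks, with replicate 1 counts multiplied by 0.99444. Intervals cover counting error only: the libraries were amplified by PCR and the labels name no molecular identifiers, so reads may repeat a molecule. Merging, overlap and the fragment solution were tested on simulated data. The regions named were the 10 strongest, the 3 strongest on each side of the core and in it, the 5 widest, the 3 strongest unshared per list, the 5 longest gaps and the densest and border bins. The chromosome, zones and rules were chosen with earlier results of these data known. The islands, the longest gap of each end and the run of 13 peaks were chosen after their values were seen.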

Additional observations from a re-analysis of the deposited data

How the results depend on the processing

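Of 42 alternative values for chromosome 8, 27 moved by less than 1.5 times (counts and lengths) or lay inside the 95% interval (shares and medians). The share of shared regions in the outer parts was 76.8% with ends of 20% of the span and 92.7% with ends of 33%. With either replicate left out it was 84.6% to 86.9%, the core was 4 to 12 Mb long and the longest gap 949022 to 1524130 bp. The short core and gap come from the replicate 1 list alone, which holds more peaks per bin. The core was 3 Mb long at 5 or fewer shared regions per bin and 25 Mb long at 20 or fewer. The first end held 46.6% of end regions with ends of 25% of the span, against 48.96% with all bins before and after the core (interval 46.8 to 51.1). With a required overlap of 50% of each peak that value was 50.4%, with the core found anew and 13 Mb long. The side with more regions by number thus changed when overlap rule and core borders changed together. The value was 48.6% to 49.4% with either replicate left out or at −log10 q of at least 5. In each of these settings too the core was found anew, so the sides could differ from those of the main setting. With replicate 1 peaks alone the core between the sides was only 4 Mb long. These shares compare sides of unequal length. In the main setting the longer side before the core held 31.9 shared regions per Mb, against 51.4 after it. Peaks with −log10 q of at least 5 gave a median lower fold of 5.04 and a partner for 57.2% of replicate 1 peaks. A required overlap of 50% of each peak gave 48.8% and a median width of 513 bp. The difference in partner share between ends and interior, whose alternatives were chosen after seeing the data, was 3.86 points with ends of 20% of the span and 8.07 to 10.3 points otherwise. Median summit fragments of replicate 1 were 76 over all peaks and 110 over shared regions, with backgrounds of 17.0 and 17.03.

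No paired analysis was possible because values are at hand for the ChIP samples alone and not for the equally numbered inputs. Total depth and the mappable share of each bin are unknown, so few peaks in the interior and few placeable reads cannot be told apart. With 2 replicates, of which the second has fewer fragments per summit, no test over samples was available. Counts of 51 shared regions and 53 replicate 2 peaks limit what can be said of the core.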
